A study of Homo sapiens with 12 samples.

Results

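The genes of cholesterol and fatty acid synthesis were followed in VM-CUB1 and 5637, established lines of human urothelial carcinoma, after stable overexpression of the long noncoding RNA HOTAIR. A list of 32 genes was drawn up by role, with earlier results of these data known. A gene was measured where at least 1 probe set carried its symbol and no other. This gave 30 of the 32 genes, out of 18132 genes on the array, through 82 of 49395 probe sets. They comprised 7 enzymes of the mevalonate pathway, 9 enzymes of the sterol steps, 7 genes of SREBP regulation and sterol transport and 7 enzymes of fatty acid synthesis. The sterol genes FDFT1 and CYP51A1 and the transcript HOTAIR itself had no probe set of their own symbol alone and are not analysed here.

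RNA was hybridised to 12 Affymetrix PrimeView arrays in 4 groups of 3. VM-CUB1_HOTAIR 20 and 5637_HOTAIR 4 each were 1 clone selected with puromycin after transfection with a HOTAIR expression plasmid, and VM-CUB1_LV and 5637_LV carried the empty vector under the same selection. For replicates 2 and 3 of both 5637 groups, 1 label names the cells by other numbers than 5637, while their titles and cell line labels give 5637, which was followed here. The 3 arrays of a group were separate RNA preparations, and the p-values measure only how these preparations varied. The effect of HOTAIR and the properties of a single clone cannot be told apart. The deposited log2 values were centred so that each probe set had a median of 0 over the 6 arrays of a line. They hold differences and no expression level, and genes or lines cannot be ranked by abundance.

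Cells make cholesterol from acetyl-CoA, first through mevalonate to farnesyl diphosphate, then through squalene and lanosterol to cholesterol. The transcription factors SREBF1 and SREBF2 are held in the endoplasmic reticulum by SCAP and the INSIG proteins when sterols are plentiful, and activate the genes of both sterol and fatty acid synthesis when released. Binding of SREBP to a sterol regulatory element is known to be aided by the factor NF-Y, which binds CCAAT boxes.

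Promoter windows of 300 bases, 250 before and 50 after the start, were taken from RefSeq (GRCh38.p14) for 27 of the 30 genes. ACAT2, SQLE and FASN were not matched. CCAAT on either strand (CCAAT or ATTGG) stood in 17 of the 27 windows (63.0%), compared with 34.6% of all 35116 windows. All 8 windows of sterol step enzymes held it, as did 4 of 6 mevalonate, 3 of 7 regulator and transport, and 2 of 6 fatty acid windows. The sterol regulatory element spelled TCACNCCAC on either strand stood in 1 of the 27 windows, that of SREBF2, compared with 1.13% of all windows. The spellings can share at most 1 base, and no shown matches overlapped. For each of the mevalonate, sterol and fatty acid steps, the gene with most CCAAT boxes was taken among those that fell in both lines. SCD and ACLY both had 2, and SCD was taken for its larger fall summed over the lines. The windows below belong to these 3 genes and to SREBF2, which was chosen after its match was seen. They run 5′ to 3′ along the gene with matches in capitals, at chr5:43313363-43313662 (minus strand), chr4:165327419-165327718 (plus), chr10:100346983-100347282 (plus) and chr22:41832855-41833154 (plus).
HMGCS1: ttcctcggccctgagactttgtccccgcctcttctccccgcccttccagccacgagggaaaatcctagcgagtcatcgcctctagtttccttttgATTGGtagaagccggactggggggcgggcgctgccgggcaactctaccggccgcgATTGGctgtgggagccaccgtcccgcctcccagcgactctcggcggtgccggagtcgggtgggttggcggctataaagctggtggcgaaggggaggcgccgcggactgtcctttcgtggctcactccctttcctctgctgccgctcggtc
MSMO1: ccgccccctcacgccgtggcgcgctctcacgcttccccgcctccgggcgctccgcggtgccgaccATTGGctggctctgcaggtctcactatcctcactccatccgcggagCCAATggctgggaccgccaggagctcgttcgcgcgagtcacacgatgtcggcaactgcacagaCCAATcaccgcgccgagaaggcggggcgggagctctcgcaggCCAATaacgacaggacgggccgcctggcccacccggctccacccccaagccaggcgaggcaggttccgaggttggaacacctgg
SCD: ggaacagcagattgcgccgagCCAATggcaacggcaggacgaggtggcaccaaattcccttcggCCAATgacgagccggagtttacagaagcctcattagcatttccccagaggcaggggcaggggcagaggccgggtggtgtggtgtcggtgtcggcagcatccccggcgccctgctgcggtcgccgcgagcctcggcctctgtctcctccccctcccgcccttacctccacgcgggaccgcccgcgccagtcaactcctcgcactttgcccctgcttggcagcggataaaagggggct
SREBF2: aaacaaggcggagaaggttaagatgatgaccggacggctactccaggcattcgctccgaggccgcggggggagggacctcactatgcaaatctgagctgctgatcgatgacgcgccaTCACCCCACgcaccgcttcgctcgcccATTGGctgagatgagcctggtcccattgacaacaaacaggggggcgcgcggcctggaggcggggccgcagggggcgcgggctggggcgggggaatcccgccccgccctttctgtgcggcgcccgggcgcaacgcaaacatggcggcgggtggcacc
HMGCS1 had boxes 155 and 100 bases before the start, MSMO1 had 4 between 185 and 34 bases before it, and SCD had 2 at 229 and 186 bases. In SREBF2 the element began 133 bases and the CCAAT box 106 bases before the start. Of the 7 windows of genes that fell in both lines, 5 held CCAAT, and those of IDI1 and ACACA held none. Of the 20 windows of the other genes, 12 held it (60%). A match is a description of letters, not of a bound site. Other spellings of the sterol regulatory element and sites outside the windows were not searched, so a window without a match may still belong to a gene with an element.

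Most of the 30 genes that changed were lower with HOTAIR, in both lines. In VM-CUB1, 15 of the 30 genes fell and 4 rose (limma, Benjamini-Hochberg adjusted p under 0.01 over all genes), against a background of 20.5% of all genes that fell and 21.1% that rose, 41.6% together. In 5637, 18 fell and 2 rose, against 15.2% and 14.7% of all genes, 29.9% together. The list was chosen with earlier results of these data known, so its excess of falls over all genes is a description, not a test. The median log2 fold change of the 30 genes was -0.31 in VM-CUB1 and -0.37 in 5637, and that of all genes was -0.03 and -0.04. The range ran from -2.97 (ABCA1) to 1.03 (SC5D) in VM-CUB1 and from -1.26 (HSD17B7) to 0.82 (ABCA1) in 5637. Changes of at least 2-fold that passed the test were fewer, with 5 falls and 1 rise in VM-CUB1 (5.96% and 5.74% of all genes) and 2 falls and 0 rises in 5637 (0.888% and 2.86%). The 3 HOTAIR arrays lay wholly below the 3 vector arrays for 18 of the 30 genes in VM-CUB1 (30.4% of all genes) and for 23 in 5637 (28.6%). They lay wholly above for 6 genes in VM-CUB1 (27.6% of all genes) and for 3 in 5637 (22.8%). Among 74 other lipid pathway genes, 10 rose and 28 fell in VM-CUB1 by limma (51.4% called, against 41.6% of all genes). In 5637, 20 of them rose and 20 fell (54.1%, against 29.9%).

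**Figure D1:**
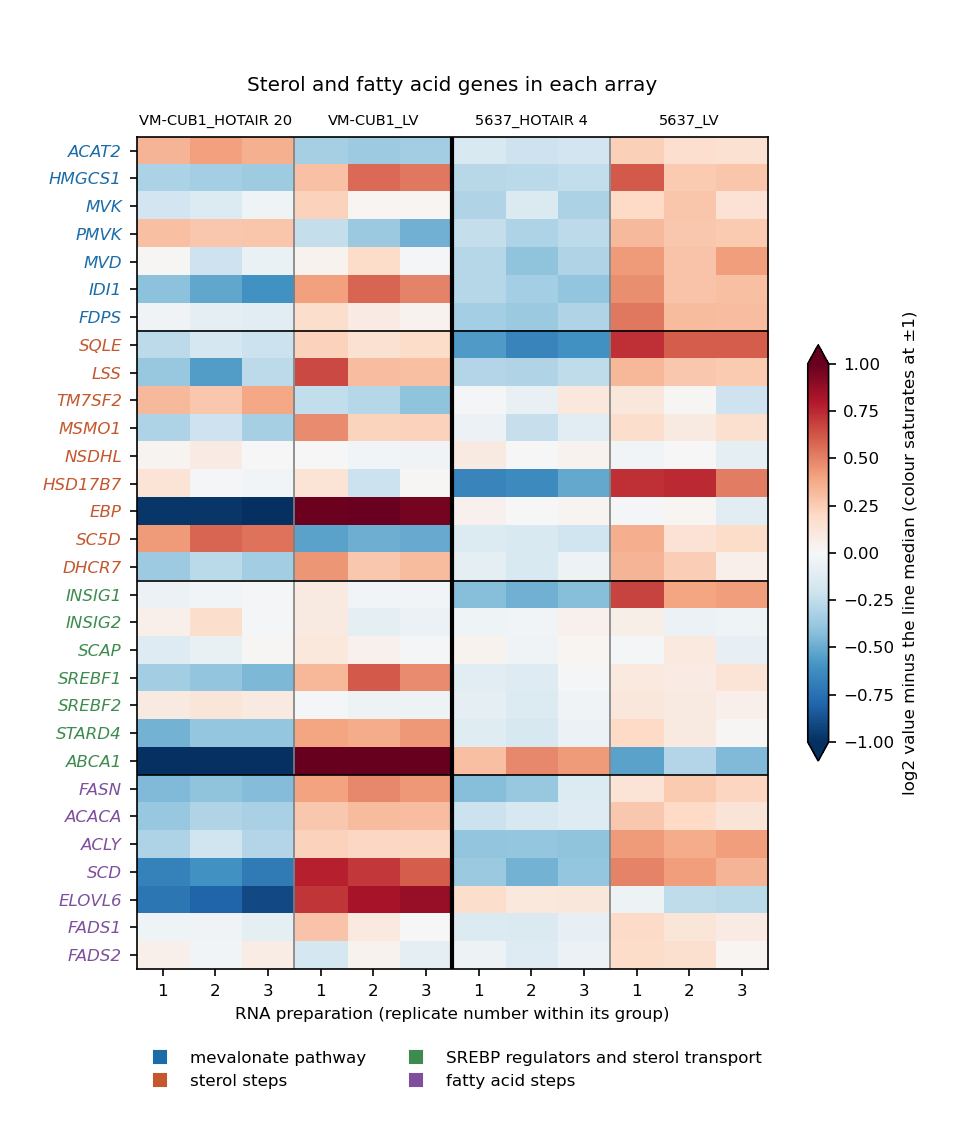
Centred log2 value of each of the 30 genes (rows, by role) on each of the 12 arrays (columns, by group), from blue (below the median of the line) to red (above it), with colours ending at the limits of the scale. In 5637 most rows are blue on the HOTAIR 4 arrays and red on the LV arrays, and in VM-CUB1 rows of both kinds occur in the mevalonate and sterol steps.

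Both lines shared 9 genes that fell (30% of the 30, against 5.05% of all genes). These were HMGCS1 and IDI1 of the mevalonate pathway, SQLE, LSS and MSMO1 of the sterol steps, and FASN, ACACA, ACLY and SCD of fatty acid synthesis. The t-test of the methods was also run, here on gene means and without the study's filter for probe sets above background. By it, HMGCS1, MSMO1 and FASN missed the threshold in 5637 and LSS in VM-CUB1. None of the 30 rose in both lines by limma (5.56% of all genes did), at an unadjusted p under 0.05 or by the t-test of the methods. Opposite changes were found for 5 genes (8.26% of all genes), of which ACAT2, PMVK and SC5D rose in VM-CUB1 and fell in 5637, and ABCA1 and ELOVL6 fell in VM-CUB1 and rose in 5637. The 5 genes NSDHL, INSIG2, SCAP, SREBF2 and FADS2 passed the test in neither line.

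**Figure D2:**
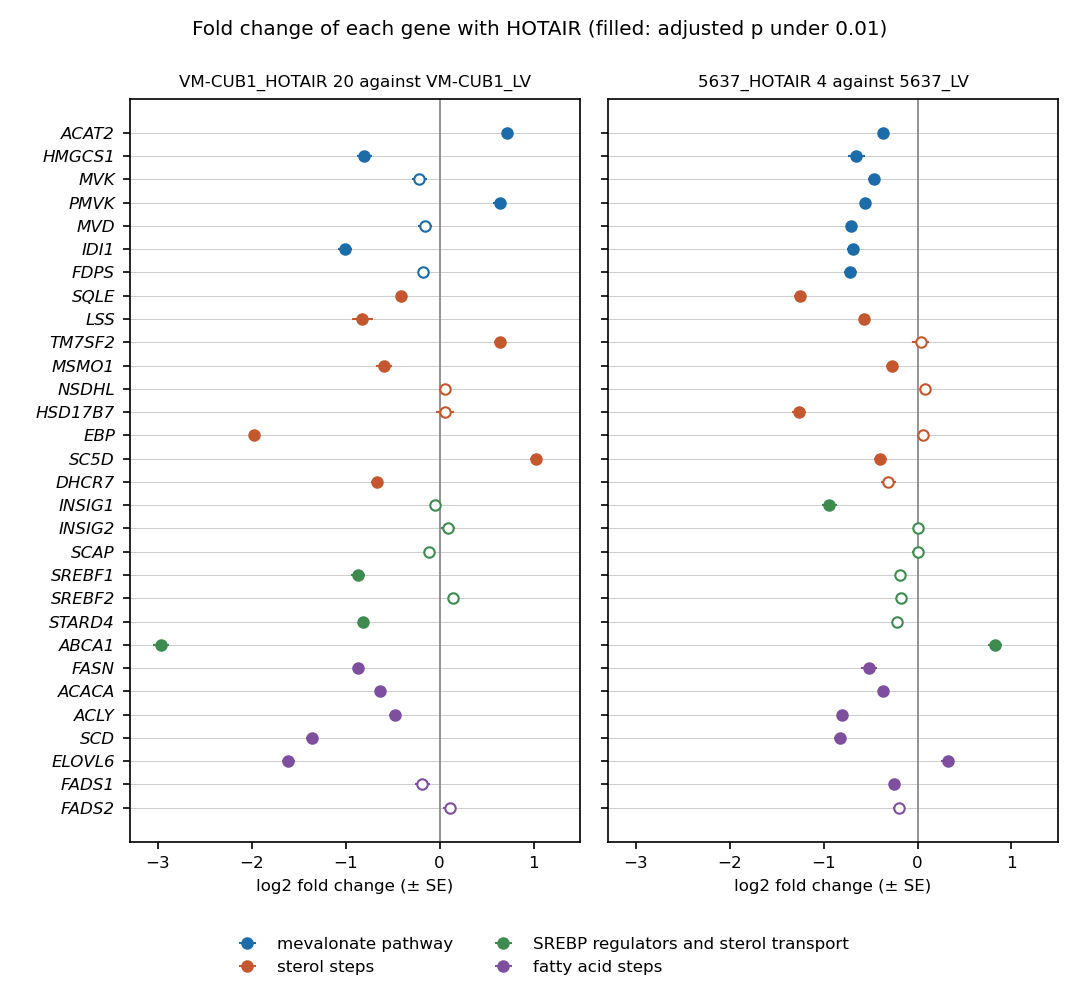
Log2 fold change of HOTAIR over LV for each of the 30 genes by role, with the standard error of limma, for VM-CUB1 and 5637 (3 arrays against 3 in each). Filled markers passed an adjusted p under 0.01, and most of them lie left of 0 in both lines.

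The vector replicates were not alike over these genes. In VM-CUB1_LV, replicate 1 was the highest of the 3 arrays for 18 of the 30 genes (60%), compared with 41.8% of all genes. Without it, 15 genes fell and 4 rose in VM-CUB1, and the median log2 fold change was -0.28. In 5637_LV, replicate 1 was the highest for 22 of the 30 genes (73.3%), compared with 32.4% of all genes. Without it, 16 genes fell and 2 rose in 5637, and the median log2 fold change was -0.33. MSMO1 and FADS1 then missed the threshold.

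The mevalonate genes fell together in 5637 by limma, but not in VM-CUB1. All 7 fell in 5637 (15.2% of all genes fell there), with a median log2 fold change of -0.65, from -0.37 (ACAT2) to -0.72 (FDPS). By the t-test of the methods, HMGCS1 and MVK missed the threshold in 5637. In VM-CUB1, HMGCS1 and IDI1 fell, ACAT2 and PMVK rose, and MVK, MVD and FDPS did not pass the test (-0.21, -0.16 and -0.17). Of the 7 genes, 57.1% were called in VM-CUB1, against 41.6% of all genes. The change differed between the lines for 4 of the 7 genes, all more negative in 5637, against 42% of all genes with a difference (limma interaction, adjusted p under 0.01).

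IDI1 isomerises isopentenyl diphosphate, the building block of all isoprenoids. In VM-CUB1 its centred log2 values were -0.41, -0.52 and -0.60 on the HOTAIR 20 arrays, against 0.41, 0.58 and 0.50 on the LV arrays. This was a 2.01-fold fall (log2 fold change -1.01, SE 0.0718, limma adjusted p = 4.9e-06). In 5637 the values were -0.28, -0.34 and -0.40 on the HOTAIR 4 arrays, against 0.46, 0.28 and 0.30 on the LV arrays, a 1.61-fold fall (adjusted p = 6.5e-05). The groups were apart in both lines, and the difference between the lines missed the threshold (-0.32, adjusted p = 0.015). It passed without replicate 1 of VM-CUB1_HOTAIR 20, of VM-CUB1_LV or of 5637_LV (adjusted p = 0.00794, 0.00903 and 0.00546).

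FDPS makes farnesyl diphosphate, the last product before the sterol branch. It was read only by probe sets ending in _s_at, whose probes can be shared with other transcripts. It had -0.34, -0.37 and -0.30 in 5637_HOTAIR 4, against 0.53, 0.31 and 0.31 in 5637_LV, a 1.64-fold fall (adjusted p = 7.7e-05). In VM-CUB1 it had -0.04, -0.09 and -0.10 with HOTAIR, against 0.18, 0.08 and 0.04 in LV (adjusted p = 0.035). The groups did not overlap in either line, but the gap in VM-CUB1 was small and did not pass the test, and the lines differed by 0.54 (VM-CUB1 minus 5637, adjusted p = 0.00019).

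HMGCS1, the cytosolic HMG-CoA synthase, fell 1.74-fold in VM-CUB1 and 1.57-fold in 5637, with no difference that passed the test (-0.15, adjusted p = 0.38). ACAT2, the thiolase of the first condensation, rose 1.64-fold in VM-CUB1 (adjusted p = 5.0e-06) and fell 1.29-fold in 5637 (adjusted p = 0.00047). PMVK, phosphomevalonate kinase, likewise rose 1.56-fold in VM-CUB1 and fell 1.47-fold in 5637. MVD, the decarboxylase that follows it, fell 1.63-fold in 5637 alone by the test, and its lines differed by 0.55 (adjusted p = 0.00048). MVK, the kinase before PMVK, fell 1.38-fold in 5637, and its difference of 0.25 did not pass the test (adjusted p = 0.062).

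Among the sterol steps, SQLE, LSS and MSMO1 fell in both lines, and the other enzymes that changed did so in 1 line or, for SC5D, in opposite directions. In VM-CUB1, SQLE, LSS, MSMO1, EBP and DHCR7 fell, and TM7SF2 and SC5D rose, with a median log2 fold change of -0.41 over the 9 genes. In 5637, SQLE, LSS, MSMO1, HSD17B7 and SC5D fell and none rose by limma or by the t-test of the methods (median -0.31). By that t-test, MSMO1 and SC5D missed the threshold in 5637. Of the 9 genes, 77.8% were called in VM-CUB1, against 41.6% of all genes, and 55.6% in 5637, against 29.9%. NSDHL, a dehydrogenase of sterol demethylation, did not pass the test in either line (0.06 and 0.08).

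EBP, the sterol isomerase of the late pathway, had the largest fall of the sterol steps in VM-CUB1. Its values were -0.97, -0.97 and -1.06 in VM-CUB1_HOTAIR 20, against 0.98, 0.99 and 0.95 in VM-CUB1_LV, a 3.94-fold fall (log2 fold change -1.98, SE 0.0537, adjusted p = 1.6e-08). In 5637 they were 0.04, -0.01 and 0.03 in HOTAIR 4, against -0.02, 0.02 and -0.11 in LV. These groups overlapped (log2 fold change 0.06, adjusted p = 0.45), and the lines differed by -2.03 (adjusted p = 5.9e-11).

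SQLE, squalene epoxidase, catalyses the first oxygenation of the sterol branch. It had -0.56, -0.66 and -0.61 in 5637_HOTAIR 4, against 0.73, 0.60 and 0.60 in 5637_LV, a 2.39-fold fall (SE 0.0571 on the log2 scale, adjusted p = 1.6e-06). In VM-CUB1 it had -0.26, -0.18 and -0.22 with HOTAIR, against 0.23, 0.16 and 0.18 in LV, a 1.33-fold fall (adjusted p = 0.00025). Both falls separated the groups, and the one in 5637 was larger by 0.85 on the log2 scale (adjusted p = 5.4e-07).

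HSD17B7, the ketosteroid reductase of sterol demethylation, had -0.66, -0.64 and -0.51 in 5637_HOTAIR 4, against 0.73, 0.74 and 0.51 in 5637_LV, a 2.4-fold fall (adjusted p = 6.7e-06). In VM-CUB1 the values of 0.13, -0.01 and -0.03 with HOTAIR overlapped those of 0.13, -0.21 and 0.01 in LV (adjusted p = 0.67). The gene was read by 1 probe set whose name marks probes shared with other transcripts, and it has a near-identical pseudogene copy, so that its signal cannot be assigned to the gene alone.

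SC5D, the sterol desaturase, went in opposite directions. Its values were 0.43, 0.58 and 0.54 in VM-CUB1_HOTAIR 20, against -0.53, -0.49 and -0.51 in VM-CUB1_LV, a 2.04-fold rise (log2 fold change 1.03, SE 0.0595, adjusted p = 1.4e-06). In 5637 they were -0.14, -0.16 and -0.20 with HOTAIR 4, against 0.36, 0.14 and 0.19 in LV, a 1.31-fold fall (adjusted p = 0.0016). The groups did not overlap in either line, and the lines differed by 1.42 (adjusted p = 1.8e-08). All 4 of its probe sets were positive in VM-CUB1 (0.77 to 1.54) and negative in 5637 (-0.90 to -0.16), where only the lowest passed the test probe set by probe set.

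LSS, which closes squalene epoxide into lanosterol, fell 1.77-fold in VM-CUB1 and 1.49-fold in 5637, with the fall in VM-CUB1 lost by the t-test of the methods. MSMO1, the methylsterol oxidase, fell 1.51-fold and 1.21-fold, with the fall in 5637 lost in 5 of 6 fits that left out 1 array, all but the fit without 5637_HOTAIR 4 replicate 1 (adjusted p 0.00904 to 0.0266). DHCR7, the reductase that yields cholesterol, fell 1.59-fold in VM-CUB1 (adjusted p = 3.2e-05) and in 5637 had a log2 fold change of -0.31 that missed the threshold (adjusted p = 0.012) but passed without 5637_LV replicate 3 (-0.39, adjusted p = 0.0025). TM7SF2, a sterol reductase, rose 1.56-fold in VM-CUB1 and had 0.03 in 5637. All of its probe sets end in _s_at or _x_at, whose probes can be shared with other transcripts.

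**Figure D3:**
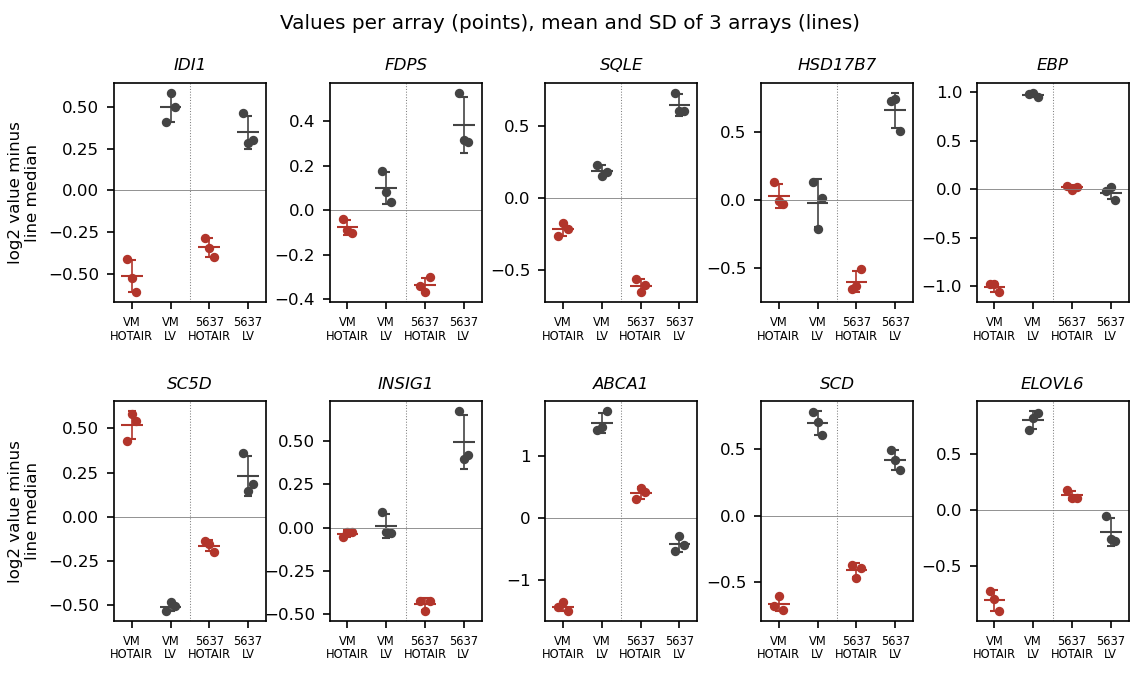
Centred log2 values of the 10 genes described array by array, with 1 point for each array, lines for the mean and SD of each group of 3, and HOTAIR left of LV in each line. The vertical scale differs between panels, and the groups are furthest apart for ABCA1 and EBP in VM-CUB1.

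Of the 7 genes of SREBP regulation and sterol transport, 3 passed the test in VM-CUB1 (42.9%) and 2 in 5637 (28.6%), close to the 41.6% and 29.9% of all genes. In VM-CUB1, SREBF1 and the transport genes STARD4 and ABCA1 fell. In 5637, INSIG1 fell and ABCA1 rose. SCAP, the escort protein of SREBP, and INSIG2 did not pass the test in either line, with log2 fold changes between -0.11 and 0.09.

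INSIG1 retains SCAP in the endoplasmic reticulum and is itself a target gene of SREBP. It had -0.42, -0.48 and -0.42 in 5637_HOTAIR 4, against 0.67, 0.40 and 0.42 in 5637_LV, a 1.92-fold fall (log2 fold change -0.94, SE 0.0784, adjusted p = 3.6e-05). Without 5637_LV replicate 1 the log2 fold change was -0.85. In VM-CUB1 it had -0.06, -0.03 and -0.02 with HOTAIR and 0.09, -0.03 and -0.03 in LV, which overlapped (adjusted p = 0.56). The lines differed by 0.89 (adjusted p = 4.6e-06).

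SREBF1, the SREBP that favours fatty acid genes, fell 1.83-fold in VM-CUB1 (SE 0.0779 on the log2 scale, adjusted p = 2.1e-05) and had -0.19 in 5637 (adjusted p = 0.021). Its 3 probe sets were unequal in VM-CUB1, at -1.56, -0.76 and -0.29. SREBF2, which favours cholesterol genes, had 0.14 in VM-CUB1 (adjusted p = 0.046, or 0.00437 by the t-test of the methods) and -0.17 in 5637 (adjusted p = 0.028), and missed the threshold in both lines but passed the test of the difference (0.31, adjusted p = 0.0012). Its calls within the lines depended on the setting, since 1 probe set passed in VM-CUB1 (0.36) and another in 5637 (-0.32). The 3 probe sets of SREBF2 had 0.36, 0.23 and -0.17 in VM-CUB1. Tested probe set by probe set, the difference passed for the first (limma interaction, adjusted p = 0.00083) and not for the others (0.067 and 0.26). STARD4, a soluble sterol carrier, fell 1.76-fold in VM-CUB1 and had -0.21 in 5637 (adjusted p = 0.026).

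ABCA1 exports cholesterol to apolipoproteins and is a target of the liver X receptors. Its values were -1.44, -1.35 and -1.50 in VM-CUB1_HOTAIR 20, against 1.43, 1.47 and 1.72 in VM-CUB1_LV, a 7.83-fold fall (log2 fold change -2.97, SE 0.0864, adjusted p = 2.3e-08). In 5637 they were 0.30, 0.48 and 0.42 in HOTAIR 4, against -0.53, -0.29 and -0.44 in LV, a 1.77-fold rise (SE 0.0771, adjusted p = 6.6e-05). The groups were apart in both lines in opposite directions, and the difference of -3.79 was the largest among the 30 genes (adjusted p = 3.1e-11).

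The 3 probe sets of ABCA1 differed in size. The probe set with the largest change had -3.42, -3.22 and -3.32 in VM-CUB1_HOTAIR 20, against 3.26, 3.22 and 3.36 in VM-CUB1_LV (log2 fold change -6.60), and in 5637 had 0.85, 0.78 and 0.76 with HOTAIR 4, against -0.76, -0.85 and -0.76 in LV (1.59). Another had -2.04 in VM-CUB1 and 0.90 in 5637. The third had -0.27 and -0.02, neither past the threshold when tested probe set by probe set. The gene mean therefore lies between unequal readings, and its fold change depends on which probe sets are averaged.

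**Figure D4:**
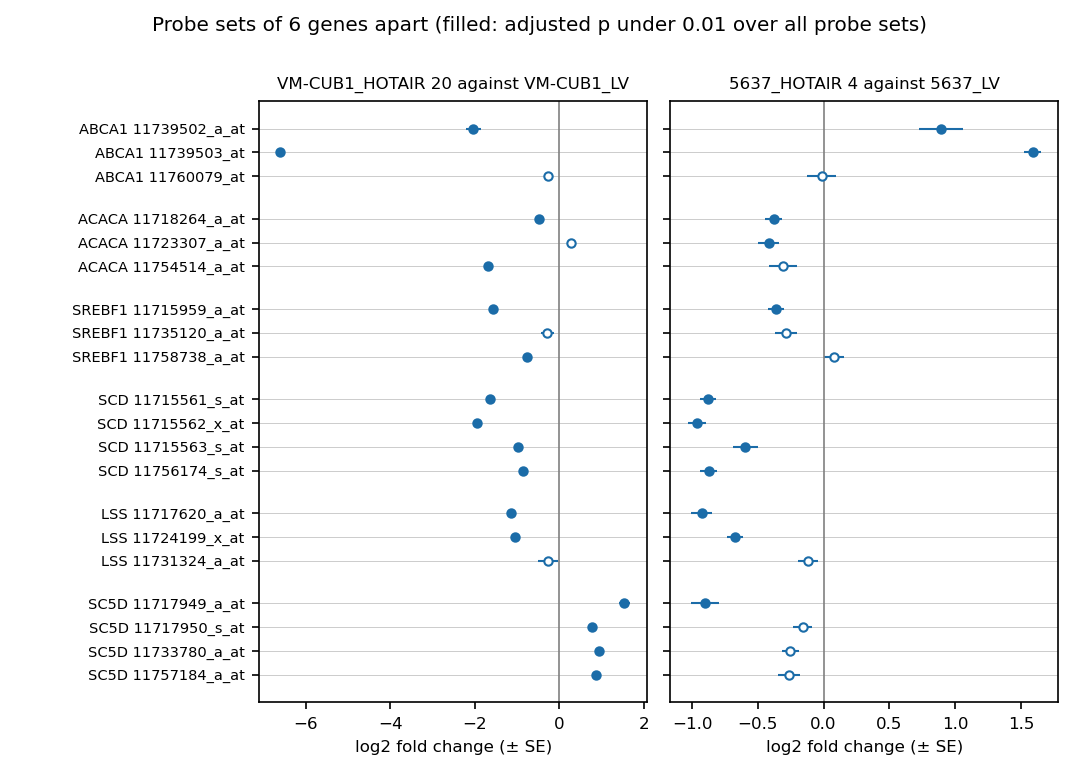
Log2 fold change of HOTAIR over LV for each probe set of 6 genes with unequal probe sets, with the standard error and on a separate scale for each line. Filled markers passed an adjusted p under 0.01 over all probe sets. The probe sets of ABCA1 spread from -6.60 to -0.27 in VM-CUB1 and from -0.02 to 1.59 in 5637.

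Other genes of sterol uptake, transport and storage were read beside ABCA1, of which 18 of 19 listed were measured. The test found 4 rises with 7 falls in VM-CUB1 (61.1% called, against 41.6% of all genes), and 5 rises with 3 falls in 5637 (44.4%, against 29.9%). ABCG1, which also exports cholesterol, fell 6.99-fold in VM-CUB1 (adjusted p = 1.5e-08) and rose 4.13-fold in 5637 (adjusted p = 6.4e-07). MYLIP, a ligase that marks lipoprotein receptors for degradation, fell 3.36-fold and rose 2.21-fold. APOE, an apolipoprotein that carries cholesterol, did not pass the test in either line (-0.18 and 0.06). GRAMD1A, a sterol transporter at membrane contacts, rose in both lines (5.86-fold in VM-CUB1, 1.66-fold in 5637). CAV1, the coat protein of caveolae, and VLDLR, a lipoprotein receptor, fell 3.13-fold and 2.63-fold in VM-CUB1. In 5637 CAV1 also fell (1.28-fold), and VLDLR did not pass the test (0.02).

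Of 8 measured genes of SREBP processing and degradation of the reductase, each line had 2 rises and 3 falls (62.5% called, against 41.6% of all genes in VM-CUB1 and 29.9% in 5637). The coat protein gene SEC23A rose 2.99-fold in VM-CUB1 and 1.31-fold in 5637. ERLIN2, of the degradation complex, fell 2.84-fold in VM-CUB1 and 1.22-fold in 5637.

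Transcripts of the central enzymes of fatty acid synthesis were lower with HOTAIR in both lines. ACLY makes cytosolic acetyl-CoA, ACACA carboxylates it, FASN builds palmitate and SCD introduces the first double bond. All 4 fell in each line by limma, and FASN missed the threshold in 5637 by the t-test of the methods. SCD and ACLY were read only by probe sets ending in _s_at or _x_at, whose probes can be shared with other transcripts. In VM-CUB1 5 of the 7 genes fell and none rose by limma or the t-test of the methods (median log2 fold change -0.63). In 5637, 5 fell and 1 rose by limma (median -0.37). Of the 7 genes, 71.4% were called in VM-CUB1, against 41.6% of all genes, and 85.7% in 5637, against 29.9%.

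SCD had -0.68, -0.60 and -0.70 in VM-CUB1_HOTAIR 20, against 0.78, 0.70 and 0.60 in VM-CUB1_LV, a 2.56-fold fall (log2 fold change -1.36, SE 0.0644, adjusted p = 4.1e-07). In 5637 it had -0.37, -0.47 and -0.39 with HOTAIR 4, against 0.50, 0.42 and 0.34 in LV, a 1.77-fold fall (adjusted p = 1.5e-05). The groups were apart in both lines and the fall was larger in VM-CUB1 (difference -0.53, adjusted p = 0.00016). Its probe sets ranged from -1.96 to -0.87 in VM-CUB1 and from -0.96 to -0.59 in 5637, all below 0.

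ELOVL6 lengthens palmitate to stearate. Its values were -0.72, -0.80 and -0.90 in VM-CUB1_HOTAIR 20, against 0.72, 0.82 and 0.87 in VM-CUB1_LV, a 3.05-fold fall (SE 0.0689 on the log2 scale, adjusted p = 2.2e-07). In 5637 they were 0.17, 0.11 and 0.11 with HOTAIR 4, against -0.05, -0.26 and -0.27 in LV, a 1.25-fold rise (adjusted p = 0.0060). The groups did not overlap, but the rise in 5637 was lost in 5 of 6 fits that left out 1 array (adjusted p 0.00103 to 0.0256), all except the fit without 5637_LV replicate 1. The lines differed by -1.93 (adjusted p = 2.9e-09).

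FASN fell 1.82-fold in VM-CUB1 and 1.43-fold in 5637, ACACA 1.55-fold and 1.29-fold, and ACLY 1.39-fold and 1.74-fold. ACLY thus fell more in 5637 (difference 0.32, adjusted p = 0.00087). ACACA fell more in VM-CUB1 (-0.26, adjusted p = 0.0075), as did FASN (-0.35, adjusted p = 0.0092), though these differences were lost in 9 and 10 of 12 fits without 1 array. That of ACACA held only without replicate 1 of 5637_HOTAIR 4, 5637_LV or VM-CUB1_LV, and that of FASN only without replicate 1 or 2 of 5637_HOTAIR 4. The probe sets of ACACA were unequal in VM-CUB1, at -1.69, -0.48 and 0.27. Their differences between the lines were -1.38, -0.10 and 0.68 in the same order, so the sign depends on the probe set. The desaturases FADS1 and FADS2 of polyunsaturated fatty acids had -0.18 and 0.11 in VM-CUB1, neither past the test, and in 5637 FADS1 fell 1.19-fold, which was lost in 5 of 6 fits without 1 array, all but the fit without 5637_LV replicate 3. FADS2 had -0.20 in 5637, and its difference of 0.31 between the lines (limma interaction, adjusted p = 0.013) missed the threshold. That difference passed without VM-CUB1_LV replicate 2 or 5637_LV replicate 3. Tested probe set by probe set, only the FADS2 probe set with the lowest adjusted p passed (0.0030), and the others had 0.043 to 0.17.

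Of 33 other measured genes of fatty acid and lipid synthesis, VM-CUB1 had 3 rises and 13 falls (48.5% called, against 41.6% of all genes), and 5637 had 9 rises and 10 falls (57.6%, against 29.9%). ME1, the malic enzyme that supplies NADPH, fell in both (3.44-fold and 2.19-fold), as did ACSL1, an acyl-CoA synthetase (4.19-fold and 1.82-fold). FADS3, a relative of FADS1 and FADS2, fell 7.65-fold in VM-CUB1 and rose 2.06-fold in 5637. PNPLA3, a lipase of lipid droplets, and ACSL5 rose 3.92-fold and 3.29-fold in 5637 and did not pass the test in VM-CUB1 (-0.10 and 0.02). ACSL4, a synthetase for polyunsaturated fatty acids, rose in both lines (2.55-fold and 1.36-fold). ELOVL4, an elongase of very long chains, fell 3.2-fold in VM-CUB1 and 1.18-fold in 5637. In VM-CUB1, HACD4, of the elongation cycle, fell 3.22-fold and PCYT1A, of phosphatidylcholine synthesis, fell 2.19-fold, and neither passed the test in 5637 (-0.12 and -0.02). MID1IP1, which activates acetyl-CoA carboxylase, fell 2.2-fold in VM-CUB1 and rose 1.44-fold in 5637.

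**Figure D5:**
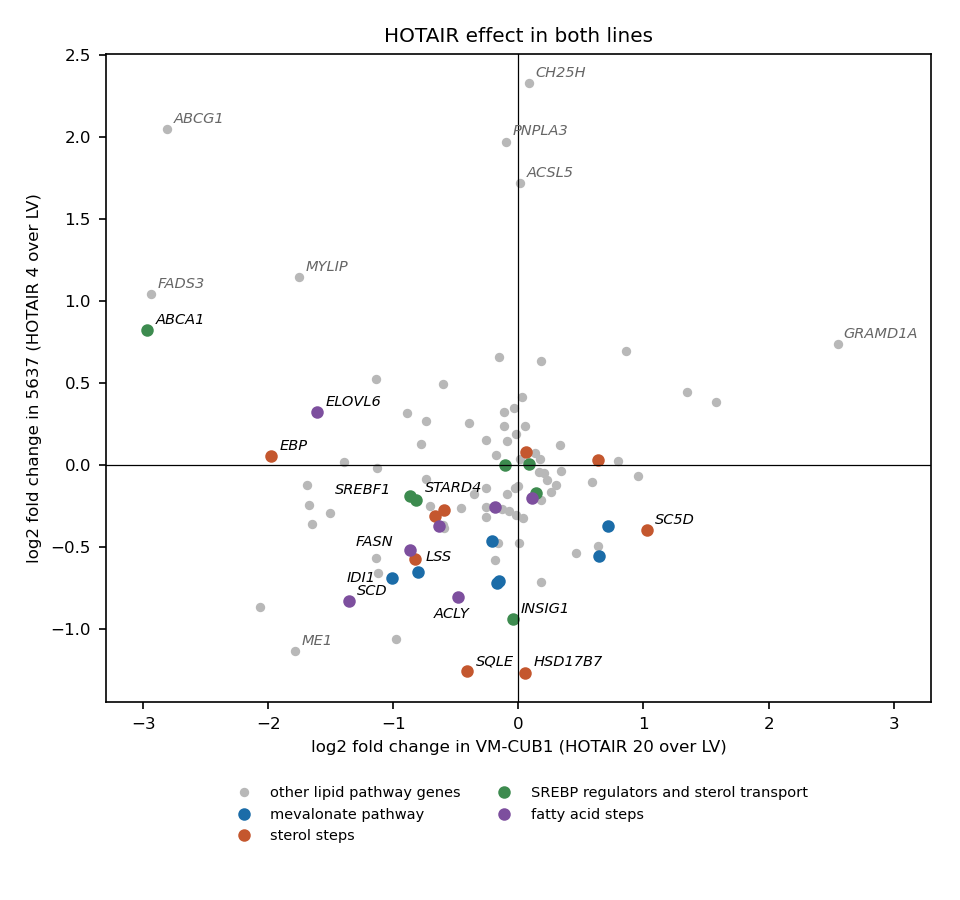
Log2 fold change of HOTAIR over LV in VM-CUB1 (horizontal axis) and in 5637 (vertical axis), with 1 point for each gene, coloured by role and grey for the 74 other lipid genes. Among the 30 genes, 17 lie below 0 on both axes, and ABCA1 lies at the upper left with ABCG1, MYLIP and FADS3.

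The HOTAIR effect differed between the lines for 19 of the 30 genes (limma interaction over 12 arrays, adjusted p under 0.01, background 42%), 11 of them more positive in VM-CUB1 (21.9% of all genes) and 8 more positive in 5637 (20.1%). At least 2-fold differences were found for 7 genes, 4 more positive in VM-CUB1 (6.47% of all genes) and 3 in 5637 (8.2%). Of these PMVK, ACAT2, SC5D and HSD17B7 were more positive in VM-CUB1, and EBP, ABCA1 and ELOVL6 were more positive in 5637.

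Markers of other cell types gave little to set beside these values. Of 17 measured markers of blood, endothelial, liver, fat, muscle and nerve cells, 0 rose and 1 fell in VM-CUB1 by limma, with 3 at an unadjusted p under 0.05, the fall being CD14 (-0.36). In 5637 3 rose, CD14 by 0.92, PECAM1 by 0.30 and MBP by 0.19 on the log2 scale. Their levels are unknown in centred values, and their part in the results was not tested.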

How the data were processed

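Transcripts of 12 RNA preparations (4 groups of 3) were measured on Affymetrix PrimeView arrays. RMA was applied by the authors (submitters' processing notes), followed by a shift to a median baseline. The deposited log2 values of each probe set had a median of 0 within each line (largest remainder 5e-07). No level and no background filter can therefore be had, and array number limits the precision. Shares of all genes thus include any genes not expressed in these lines. Of 49395 probe sets, 102 were controls. Of the rest, 44988 had 1 gene symbol in the platform annotation, 1832 several and 2473 none. A gene's value was the mean of its probe sets with that symbol alone, which gave 18132 genes.

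HOTAIR was compared with LV in each line by limma 3.58.1 (R 4.3.3, lmFit and eBayes, two-sided), and between lines by an interaction over all 12 arrays, adjusted by Benjamini-Hochberg over the 18132 genes and called under 0.01. A gene rose or fell only where it passed. The tests were tested on simulated data. Values of each array are given for genes that changed at least 2-fold in a line, or most within their role group in a line. Other pathway genes are named where they changed at least 2-fold in a line, except APOE, which is named although it did not. The genes and lists were chosen with earlier results of these data known. Promoter windows came from RefSeq (GRCh38.p14). Within-group correlations between arrays over all genes were 0.918 to 0.948 in VM-CUB1 and 0.775 to 0.848 in 5637. Alternatives were the methods' t-test, 1 fit of all arrays, other handling of probe sets, array scaling, a robust prior, other thresholds, the replicate block and leaving out each array. The t-test used gene means without the study's background filter, so its calls are not those of the study.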

Additional observations from a re-analysis of the deposited data

Results flagged for a closer look

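For 19 of the 30 genes the HOTAIR effect differed between the lines by the limma interaction test (adjusted p under 0.01), given here as the log2 fold change in VM-CUB1 minus that in 5637. In the mevalonate pathway the differences were 1.09 for ACAT2, 1.20 for PMVK, 0.55 for MVD and 0.54 for FDPS. In the sterol steps they were 0.85 for SQLE, 0.60 for TM7SF2, 1.32 for HSD17B7, -2.03 for EBP and 1.42 for SC5D. Among regulators and transport genes they were 0.89 for INSIG1, -0.68 for SREBF1, 0.31 for SREBF2, -0.60 for STARD4 and -3.79 for ABCA1. In fatty acid synthesis they were -0.35 for FASN, -0.26 for ACACA, 0.32 for ACLY, -0.53 for SCD and -1.93 for ELOVL6. All 4 mevalonate differences were positive, and 4 of the 5 in fatty acid synthesis were negative. With 1 clone for each line and treatment, line and clone cannot be told apart in these differences.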

How the results depend on the processing

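Of 90 results for single genes (30 in each line and for the difference), 67 stayed on their side of the threshold under every alternative run. The other 23 crossed it in at least 1, and 0 reversed where either fit passed. Changes of sign where neither fit passed were not counted, as for SCAP in 5637 (0.0013, and -0.00598 without 5637_LV replicate 1). With a change of at least 2-fold also required, 1 gene rose and 5 fell in VM-CUB1, 0 rose and 2 fell in 5637, and 4 differences were more positive in VM-CUB1 and 3 in 5637. In 5637 only 1 gene, ABCA1, rose under the methods' t-test, with the median of the probe sets, and without probe sets ending in _x_at or _s_at, since ELOVL6 missed the threshold. Without those probe sets 25 genes were measured, and 7 differences were more positive in VM-CUB1 and 5 in 5637. FDPS, HSD17B7, TM7SF2, ACLY and SCD had only such probe sets and were not measured then. The methods' t-test gave 5 rises and 14 falls in VM-CUB1, and 12 falls in 5637, where HMGCS1, MVK, MSMO1, SC5D, FASN and FADS1 were lost. Leaving out 1 array in turn gave 4 to 4 rises and 15 to 15 falls in VM-CUB1, 1 to 2 rises and 16 to 18 falls in 5637, and 11 to 12 differences more positive in VM-CUB1 and 6 to 9 in 5637. The cause of these shifts was not tested.

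Replicate numbers did not pair the samples: deviations of same-numbered arrays correlated at -0.0454 to -0.00336 in VM-CUB1 and at -0.0297 to 0.0833 in 5637. With the replicate number as a block, there were 4 rises and 15 falls in VM-CUB1, 2 rises and 17 falls in 5637, and 11 differences were more positive in VM-CUB1 and 6 in 5637. The window of SREBF2, the only 1 of 27 with the spelling TCACNCCAC, was also the only 1 with the stricter spelling TCACCCCAC.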

Other observations

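Of 15 measured genes of isoprenoid use and further sterol metabolism, VM-CUB1 had 1 rise and 5 falls, and 5637 had 4 of each (limma, adjusted p under 0.01). These were 40% called in VM-CUB1, against 41.6% of all genes, and 53.3% in 5637, against 29.9%. GGPS1, which makes geranylgeranyl diphosphate, fell 2.17-fold in VM-CUB1 and 1.58-fold in 5637. FNTA, a subunit of protein prenyltransferases, fell 1.97-fold and 2.08-fold. LBR, a lamin receptor with sterol reductase activity like that of TM7SF2, fell 2.2-fold and 1.48-fold, whereas TM7SF2 rose 1.56-fold in VM-CUB1. CH25H, cholesterol hydroxylase, rose 5.01-fold in 5637 (adjusted p = 7.9e-08) and had a log2 fold change of 0.09 in VM-CUB1 (adjusted p = 0.63).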
